A study of Mus musculus with 38 samples.

Results

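The 10 genes followed here are the mouse counterparts of genes near human Alzheimer's disease risk variants, and they were read in the hippocampal RNA-seq of 38 mice. The members were Cd33, Ms4a6d, Inpp5d, Plcg2 and Abi3, which in brain are used mainly by microglia, Bin1 and Sorl1, which are abundant in neurons, and Picalm, Cd2ap and Abca7, which most cell types use. These classes are background knowledge, since whole-tissue RNA does not measure which cells a gene comes from. Among mice of the same group Bin1 and Sorl1 did not follow neuron marker genes (r = -0.11 and -0.20). Both rose with oligodendrocyte marker genes (r = 0.72 each), so neuronal is used here as a label of the list only. The members were listed by name, with earlier results of these data already known, and all 10 of 10 were found among the 48709 genes counted. The mice were wild-type (WT) or carried the APP(Swe)/PS1ΔE9 transgenes (APPPS1ΔE9), which are driven in neurons by a prion protein promoter, on a C57BL/6 background. In the pre-plaque group they were fed placebo or anle138b chow (2 g anle138b per kg food), a small molecule that binds amyloid oligomers, for 4 months from 2 months of age and examined at 6 months, with 4 mice in each of the 4 genotype and chow groups. In the post-plaque group the same 4-month feeding began at 6 months of age and ended at 10 months, with 5 WT mice on each chow, 5 APPPS1ΔE9 mice on placebo and 7 on anle138b. The labels call the genotype APPdelta9, and the transgenic mice of both chows carried the same transgenes. Each library came from 1 mouse.

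Genetic studies place much of the inherited risk for late-onset Alzheimer's disease in genes of microglia, the resident phagocytes of brain, and in genes that sort cargo through clathrin-coated pits and endosomes. In microglia, activating receptors such as Trem2 signal through Tyrobp and the kinase Syk to phospholipase C gamma 2, the product of Plcg2. Human CD33 is an inhibitory receptor that recruits phosphatases, and the lipid phosphatase Ship1, the product of Inpp5d, removes the membrane lipid that the kinases make. In neurons and other cells, Picalm and Bin1 shape and recruit endocytic membrane, Cd2ap links it to actin, and Sorl1 carries the amyloid precursor protein away from the compartments in which it is cut to amyloid beta.

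Library totals ran from 15847985 to 31895808 gene counts, with a median of 24530658. App was at 1522 to 1799 CPM, counts scaled to a common library total, in the 18 WT mice and at 3274 to 4286 CPM in the 20 APPPS1ΔE9 mice, and Prnp, which lends its promoter to the transgenes, at 935 to 1210.3 and 2244 to 2907 CPM, so that every library went with the genotype of its title. A second label calls the 4 placebo-treated WT libraries of 6 months transgenic, but App and Prnp were at WT level in them. The study's methods state that the mice were male, yet Xist stood at 1154 to 1453 CPM in 12 of the 38 libraries, 11 of them WT (6 of the 10 WT mice at 10 months) and 1 APPPS1ΔE9. The genotype comparisons were therefore also run without these libraries. At 10 months no sequencing lane held both genotypes, so lane and genotype cannot be told apart there. At 6 months the placebo-treated WT mice were all on lane 4, the placebo-treated APPPS1ΔE9 mice on lane 5 and the anle138b-treated APPPS1ΔE9 mice on lane 6. The 2 ages were separate cohorts.

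Annotation was taken from GENCODE M21 on GRCm38, the assembly also called mm10. Cd33 (ENSMUSG00000004609), a sialic acid receptor, spans chr7:43524216-43544428 on the minus strand, and Ms4a6d (ENSMUSG00000024679), a member of a cluster of tetraspan membrane proteins with close paralogs, spans chr19:11586604-11604849 on the minus strand. Inpp5d (ENSMUSG00000026288) spans chr1:87620312-87720507 on the plus strand, Plcg2 (ENSMUSG00000034330) spans chr8:117498291-117635142 on the plus strand, and Abi3 (ENSMUSG00000018381), an adaptor of the actin-regulating WAVE complex, spans chr11:95830074-95842476 on the minus strand. Sorl1 (ENSMUSG00000049313) spans chr9:41964720-42124297 on the minus strand, Picalm (ENSMUSG00000039361) chr7:90130213-90213465 on the plus strand, Cd2ap (ENSMUSG00000061665) chr17:42792951-42876665 on the minus strand and Abca7 (ENSMUSG00000035722), a lipid transporter, chr10:79996494-80015572 on the plus strand. The position of Bin1 (ENSMUSG00000024381), a membrane-bending amphiphysin, is not given here. Of the 4153 exonic bases of Abi3 only 1006 are shared with no other gene: exons of Zfp652, Phospho1 and Gngt2 on the opposite strand cover 2913, 1708 and 234 of them. The strand setting of the counting is not given in the sources used here, so Abi3 counts are uncertain, and so are those of Ms4a6d, which rested on 12 to 40 reads a library.

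Of the microglial members only 3 had a start site in the RefSeq promoter table (GRCm38.p6), and the 250 bases upstream of each are shown. Capitals mark GAGGAA, the core that the myeloid factor PU.1 (Spi1) favours, searched on both strands (TTCCTC on the other) with no overlap between matches. The Cd33 window is at chr7:43533172-43533421 on the minus strand, its start site lying inside the GENCODE gene. The Inpp5d window is at chr1:87620062-87620311 and the Plcg2 window at chr8:117498025-117498274, both on the plus strand.
Cd33: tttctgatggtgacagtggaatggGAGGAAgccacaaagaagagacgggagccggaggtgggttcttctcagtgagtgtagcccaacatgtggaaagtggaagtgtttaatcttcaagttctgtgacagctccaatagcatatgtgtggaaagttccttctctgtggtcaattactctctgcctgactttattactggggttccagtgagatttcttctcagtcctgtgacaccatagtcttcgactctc
Inpp5d: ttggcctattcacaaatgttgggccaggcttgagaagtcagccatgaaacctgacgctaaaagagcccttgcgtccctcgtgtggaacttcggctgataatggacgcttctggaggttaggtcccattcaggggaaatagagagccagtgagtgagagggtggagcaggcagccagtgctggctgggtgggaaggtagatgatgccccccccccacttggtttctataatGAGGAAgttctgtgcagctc
Plcg2: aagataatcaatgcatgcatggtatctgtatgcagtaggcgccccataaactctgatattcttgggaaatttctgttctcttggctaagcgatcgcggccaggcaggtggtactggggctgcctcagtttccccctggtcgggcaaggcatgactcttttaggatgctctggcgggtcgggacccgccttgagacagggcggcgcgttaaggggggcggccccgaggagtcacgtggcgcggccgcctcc
The Cd33 and Inpp5d windows held 1 match each, and the Plcg2 window none. The same letters were found in 23.3% of the 32851 start sites of the table, and in 3 of the 8 start sites listed for 7 of the 10 members. Beside Cd33 and Inpp5d this was the start site of Picalm, a ubiquitous member, with 2 matches. The windows also differed in CpG pairs, with 3 at Cd33, 5 at Inpp5d and 17 at Plcg2 against a median of 6 over all start sites. Ms4a6d, Abi3 and Bin1 had no entry.

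Levels per kilobase of exon set the members classed as neuronal far above those classed as microglial. Over the 18 WT mice Bin1 stood at 65.0 ± 5.33 CPM per kb (mean ± SD) and Sorl1 at 39.9 ± 3.15 CPM per kb. Picalm followed at 10.8 ± 0.845 and Abca7 at 4.13 ± 0.527 CPM per kb, and none of these 4 overlapped its neighbour in the order. Inpp5d (1.87 ± 0.211), Plcg2 (1.76 ± 0.235), Cd2ap (1.63 ± 0.313) and Cd33 (1.52 ± 0.208 CPM per kb) came next, and each overlapped its neighbours among these 4, so their order is not set by these data. Below them and without overlap, Ms4a6d (0.561 ± 0.149) and Abi3 (0.287 ± 0.0602 CPM per kb) were lowest and overlapped each other. Abi3 came to 1.19 CPM per kb when divided by its unshared exon length alone.

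The first question was whether these risk genes differed between APPPS1ΔE9 and WT hippocampus once plaques were present. At 10 months 3 of the 5 microglial members, Cd33, Inpp5d and Abi3, were higher in APPPS1ΔE9 mice by 1.33-fold, 1.30-fold and 1.48-fold, and none of the 5 neuronal and ubiquitous members passed the test. The comparison took the mean over both chows of APPPS1ΔE9 minus WT (10 WT and 12 APPPS1ΔE9 mice) in edgeR's quasi-likelihood test, with p-values adjusted by Benjamini and Hochberg over all 17668 genes tested and a threshold of 0.1. Of those genes 252 (1.43%) were called, 233 of them (1.32%) in the higher direction, against the 3 of 10 members. The median log2 fold change was 0.38 over the microglial members, 0.04 over the other 5 and -0.00437 over all genes. At an unadjusted p under 0.05 stood 6 members, against 6.84% of all genes. DESeq2 called 3 members at the threshold of 0.1, among the 312 genes it called in all.

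Cd33, the sialic acid receptor, was measured at 10.8, 12.2, 13.6, 13.9 and 14.2 CPM in placebo-treated WT mice, 9.32, 11.97, 12.3, 14.2 and 14.4 CPM in anle138b-treated WT mice, 13.8, 14.97, 15.5, 19.2 and 20.01 CPM in placebo-treated APPPS1ΔE9 mice and, in anle138b-treated APPPS1ΔE9 mice, 11.8 at the lowest, 18.1 at the median and 19.7 at the highest. Of the 12 APPPS1ΔE9 mice 10 stood above every WT mouse, and the 2 others lay inside the WT range. The log2 fold change was 0.41 (SE 0.09, adjusted p = 0.0302). Inpp5d, which encodes the phosphatase Ship1, was at 12.7, 12.8, 15.7, 16.8 and 17.5 CPM in placebo-treated WT mice, 12.95, 13.1, 15.2, 15.3 and 16.3 CPM in anle138b-treated WT mice, 16.2, 16.7, 17.9, 20.9 and 20.9 CPM in placebo-treated APPPS1ΔE9 mice and, in anle138b-treated APPPS1ΔE9 mice, 15.5 at the lowest, 19.7 at the median and 24.9 at the highest. Of the 12 APPPS1ΔE9 mice 8 exceeded every WT mouse, with a log2 fold change of 0.38 (SE 0.09, adjusted p = 0.0346). Abi3, the actin adaptor, was at 0.5998, 1.25, 1.28, 1.31 and 1.44 CPM in placebo-treated WT mice, 0.926, 1.01, 1.096, 1.502 and 1.60 CPM in anle138b-treated WT mice, 1.34, 1.76, 1.78, 1.80 and 2.05 CPM in placebo-treated APPPS1ΔE9 mice and, in anle138b-treated APPPS1ΔE9 mice, 1.18 at the lowest, 1.83 at the median and 2.31 at the highest. Again 10 of the 12 APPPS1ΔE9 mice were above the WT range, and the lowest WT value stood apart from the other 4 of its group. Its log2 fold change was 0.57 (SE 0.15, adjusted p = 0.0710).

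**Figure D1:**
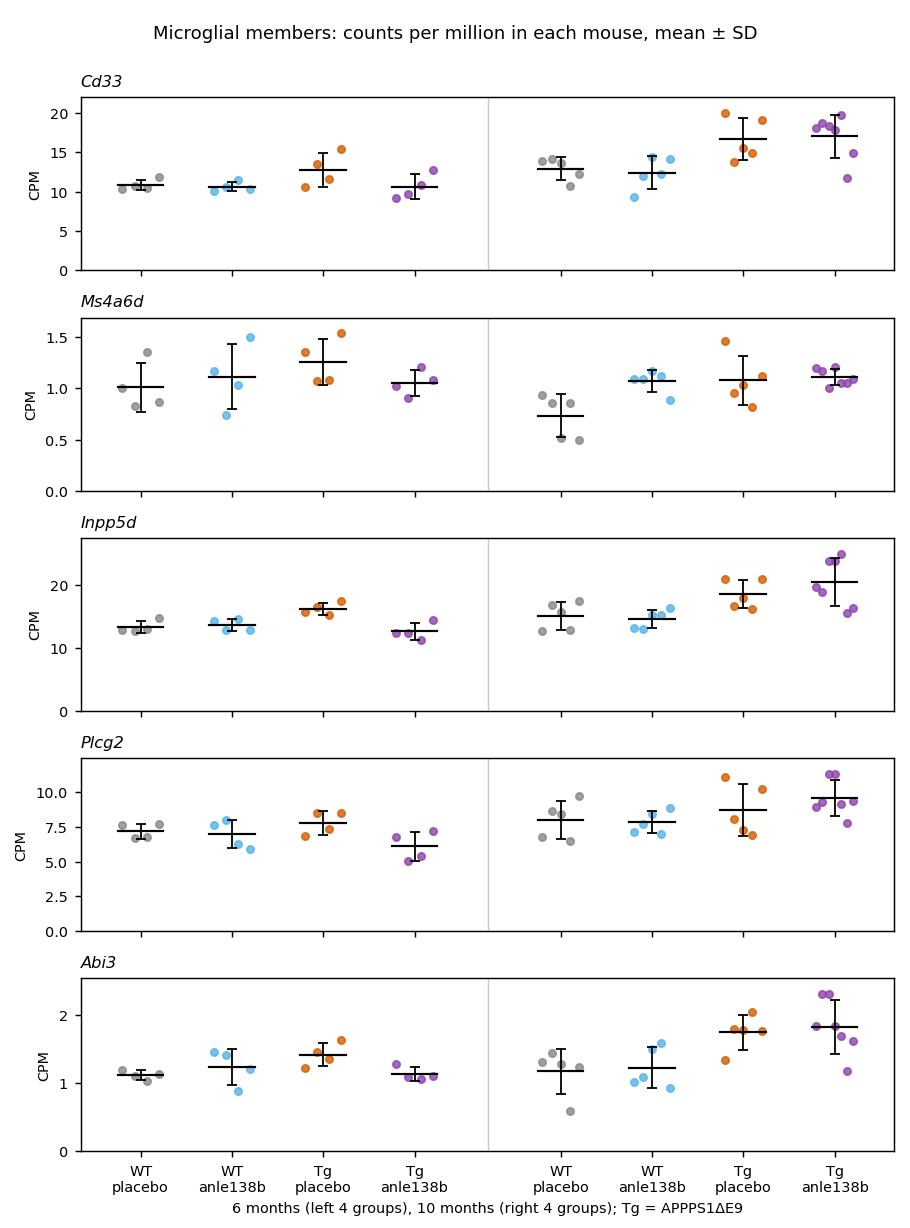
CPM of the 5 microglial members in each mouse, 6 months in the left 4 groups and 10 months in the right 4 groups, with bars for the mean ± SD. At 10 months 10 of 12 APPPS1ΔE9 mice (Tg) lie above all WT mice for Cd33 and Abi3 and 8 of 12 for Inpp5d, while for Ms4a6d and Plcg2 only 4 of 12 do.

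The calls for Cd33 and Inpp5d were kept when any 1 of the 22 mice was left out, with adjusted p-values of at most 0.071 and 0.0873, whereas Abi3 was called in 10 of those 22 fits (adjusted p = 0.0292 to 0.156) and was lost without replicate 1, 2 or 7 of the APPPS1ΔE9 mice on anle138b, 1, 2, 3 or 4 of those on placebo, 1, 2 or 5 of the WT mice on anle138b or 3 or 5 of those on placebo. Without the libraries with high Xist, which left 4 WT and 11 APPPS1ΔE9 mice, the log2 fold changes were 0.49 for Cd33, 0.35 for Inpp5d and 0.59 for Abi3, and none passed the test (adjusted p = 0.196, 0.429 and 0.302).

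Microglial markers were higher in the same libraries. The summed level of 12 homeostatic microglia markers (P2ry12, Tmem119, Cx3cr1 and others) ran from 388 to 482 CPM in the 10 WT and from 485 to 740.2 CPM in the 12 APPPS1ΔE9 mice at 10 months, and that of 17 plaque-associated markers (Cst7, Itgax, Trem2 and others) from 210.0 to 283 and from 340.4 to 536 CPM, with no overlap in either list. Markers of perivascular macrophages and blood leukocytes were low in both genotypes, at 5.71 to 17.5 and 5.41 to 12.4 CPM, and neuron markers overlapped, at 12563 to 14779 and 12557 to 14896 CPM. No gene of any marker list was at 0 in all libraries. In bulk tissue more microglia and more RNA per microglial cell cannot be told apart.

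The remaining microglial members did not pass the test. Ms4a6d was at 0.499, 0.511, 0.855, 0.857 and 0.936 CPM in placebo-treated WT mice, 0.884, 1.09, 1.096, 1.118 and 1.17 CPM in anle138b-treated WT mice, 0.821, 0.956, 1.04, 1.123 and 1.46 CPM in placebo-treated APPPS1ΔE9 mice and, in anle138b-treated APPPS1ΔE9 mice, 1.01 at the lowest, 1.09 at the median and 1.21 at the highest. In placebo-treated WT mice 2 values were the lowest of the cohort, the other groups overlapped, and the log2 fold change was 0.31 (SE 0.12, adjusted p = 0.483). Plcg2, the phospholipase below the activating receptors, ran from 6.47 to 9.72 CPM in WT and from 6.94 to 11.3 CPM in APPPS1ΔE9 mice. There 4 of the 12 APPPS1ΔE9 mice exceeded all WT mice, and the log2 fold change was 0.20 (SE 0.10, adjusted p = 0.716).

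Among neuronal and ubiquitous members the genotypes overlapped at 10 months, and only Abca7 had APPPS1ΔE9 mice above every WT mouse. Bin1 ran from 226 to 305 CPM in WT and from 239.8 to 304 CPM in APPPS1ΔE9 mice, with a log2 fold change of 0.05 (SE 0.06, adjusted p = 0.965). Sorl1, the sorting receptor, ran from 403 to 529.8 and from 350.5 to 519 CPM, with a log2 fold change of -0.01 (SE 0.07, adjusted p = 0.991). No APPPS1ΔE9 mouse exceeded the WT range for either gene. Picalm, a clathrin assembly protein, ran from 156 to 184 CPM in WT and from 151 to 181 CPM in APPPS1ΔE9 mice, with a log2 fold change of 0.04 (SE 0.04, adjusted p = 0.965). Cd2ap, an actin-linked scaffold, ran from 25.04 to 34.1 and from 25.7 to 33.9 CPM, with a log2 fold change of -0.01 (SE 0.06, adjusted p = 0.991). Both genes again kept all APPPS1ΔE9 mice at or below the highest WT mouse. Abca7 ran from 24.1 to 32.3 CPM in WT and from 26.7 to 39.6 CPM in APPPS1ΔE9 mice, with a log2 fold change of 0.13 (SE 0.06, adjusted p = 0.628). Of the 12 APPPS1ΔE9 mice 5 were above every WT mouse, against 4 for each of the microglial members Plcg2 and Ms4a6d.

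**Figure D2:**
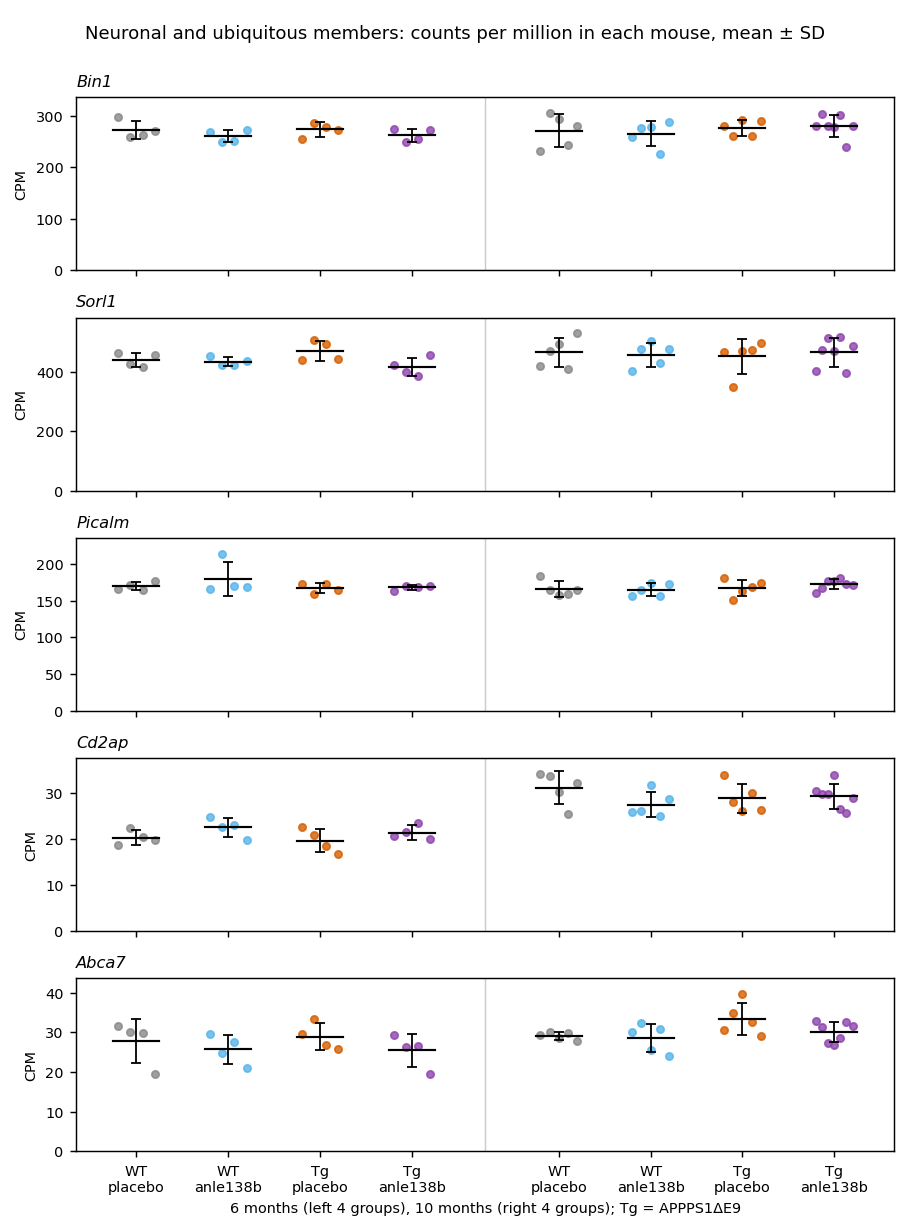
CPM of the 2 neuronal members (Bin1, Sorl1) and the 3 ubiquitous members (Picalm, Cd2ap, Abca7) in each mouse, drawn in the same layout with bars for the mean ± SD. The genotypes overlap for each gene at both ages, and Cd2ap is higher in every mouse of the 10-month cohort than in any of the 6-month cohort. The share of all genes separated in this way was not computed, and age and cohort cannot be told apart.

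Within a single chow fewer mice entered each fit and no member was called at 10 months. Between placebo-treated APPPS1ΔE9 and WT mice edgeR called 0 of 10 members against 55 of 16971 genes (0.324%), 5 members had an unadjusted p under 0.05 (4.1% of all genes) and DESeq2 called 0. The log2 fold changes were 0.37 (SE 0.12, adjusted p = 0.745) for Cd33, 0.29 (SE 0.12, adjusted p = 1) for Inpp5d and 0.57 (SE 0.22, adjusted p = 1) for Abi3. Between anle138b-treated APPPS1ΔE9 and WT mice edgeR called 0 of 10 against 124 of 17151 genes (0.723%), and 4 members had an unadjusted p under 0.05 (5.78% of all genes). DESeq2 called 1, Inpp5d, among the 188 genes it called in all. The log2 fold changes were 0.45 (SE 0.14, adjusted p = 0.411) for Cd33, 0.48 (SE 0.13, adjusted p = 0.233) for Inpp5d and 0.57 (SE 0.20, adjusted p = 0.630) for Abi3. Mouse 97, an anle138b-treated APPPS1ΔE9 mouse, decided the calls in this comparison, since without it Cd33 (adjusted p = 0.0599) and Inpp5d (adjusted p = 0.0633) passed in edgeR.

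Next, each member was set against the homeostatic microglia markers of its own library, as log2 CPM of the member minus the mean log2 CPM of the 12 markers. The marker mean itself was higher in APPPS1ΔE9 mice by 0.36 on placebo and 0.44 on anle138b at 10 months, so a gene that did not change comes out lower by that much. The median difference of this ratio between genotypes over 18220 genes was -0.36 on placebo and -0.44 on anle138b, and the members are read against it. For Cd33 the difference was -0.00335 on placebo (exact p = 0.952) and 0.01 on anle138b (exact p = 0.808), and for Inpp5d -0.07 (exact p = 0.397) and 0.03 (exact p = 0.694). Of all genes 3.9% and 3.28% had a difference at or above that of Cd33 on the 2 chows, and 5.21% and 3.09% at or above that of Inpp5d.

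Bin1, Sorl1, Picalm and Cd2ap stood near the median of all genes. On placebo the differences were -0.33 for Bin1, -0.41 for Sorl1, -0.35 for Picalm and -0.47 for Cd2ap, and on anle138b -0.36, -0.42, -0.37 and -0.35. Abca7 was at -0.17 and -0.36. On placebo 5 of 10 members had an exact p under 0.05 against 48.3% of all genes, and 3 did not overlap between genotypes against 20.4%. On anle138b 5 of 10 members had an exact p under 0.05 against 65.7% of all genes, and 0 did not overlap against 10.4%. These shares are near the background and are no result about the members. Over both ages and chows 9 of 40 tests passed at an adjusted p under 0.1, each lower in APPPS1ΔE9 mice at 10 months. These 9 lay near the median difference of all genes, and the share of all genes at that threshold was not computed. With 4 against 4 mice at 6 months the smallest exact p possible was 0.0286, which left little room to pass there. Abi3 on placebo reached it at 6 months without overlap, 0.16 higher in APPPS1ΔE9 mice, and did not pass (adjusted p = 0.114).

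Among the other microglial members Plcg2 was at -0.25 on placebo and -0.15 on anle138b, Abi3 at 0.22 and 0.11, and Ms4a6d at 0.17 and -0.39. Without mouse 60 or mouse 61 (anle138b-treated WT) none of the 9 passed (adjusted p = 0.104 to 0.154). Without the libraries with high Xist 2 WT mice an arm were left, too few for a test that could pass, and the differences were -0.40 and -0.50 for Bin1, -0.47 and -0.49 for Sorl1 and 0.01 and 0.08 for Cd33, on placebo and anle138b.

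**Figure D3:**
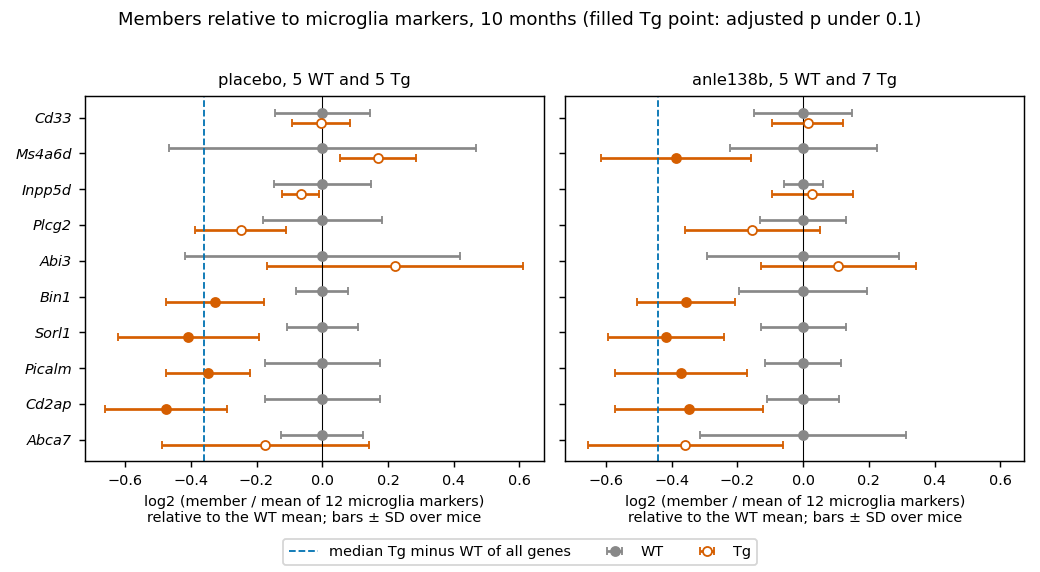
Log2 ratio of each member to the mean of 12 homeostatic microglia markers at 10 months, relative to the WT mean, as mean ± SD over mice for placebo (left) and anle138b (right), with filled points where the adjusted p was under 0.1 and a dashed line at the median Tg minus WT difference of all genes (-0.36 and -0.44). Cd33 and Inpp5d of APPPS1ΔE9 mice (Tg) lie near 0, while Bin1, Sorl1, Picalm and Cd2ap lie near the dashed line.

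Other genes of the same pathways were read from lists in the pooled 10-month comparison. Of 28 tested genes of phosphoinositide and ITAM receptor signalling, the pathway of Inpp5d and Plcg2, 10 rose and none fell, with a median log2 fold change of 0.35. They included Tyrobp, the signalling adaptor of Trem2, at 1.39 (SE 0.10, adjusted p = 1.6e-08), Fcer1g, the Fc receptor gamma chain, at 0.84 (SE 0.08, adjusted p = 9e-07), and Ptpn6, a tyrosine phosphatase, at 0.76 (SE 0.10, adjusted p = 7.2e-05). Of 44 genes of clathrin endocytosis and endosomal sorting, the setting of Picalm, Bin1, Cd2ap and Sorl1, none was called by edgeR, and the median was 0.01.

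Of 46 tested other Alzheimer risk genes 6 rose and none fell, with a median log2 fold change of 0.05. These were Trem2 (1.35), which the ITAM list also holds, its relative Treml2 (0.80), the myeloid transcription factor Spi1 (0.54), the lysosomal proteases Ctsh (0.45) and Ctsb (0.20), and the lysosomal protein progranulin, Grn (0.42). Of 30 close relatives of the members 3 rose, namely Cd22 (1.18) and Siglech (0.45), sialic acid receptors like Cd33, and Bin2 (0.32), the amphiphysin of blood-derived cells. Among the marker lists 8 of 12 homeostatic microglia markers, which also hold Siglech, and 14 of 17 plaque-associated markers, which also hold Trem2 and Tyrobp, rose, beside 1 of 8 astrocyte markers (Gfap, 0.997). None of the 10 neuron, 10 oligodendrocyte, 8 endothelial, 9 neighbouring tissue and 5 tested perivascular and leukocyte markers was called.

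In the pre-plaque group, before widespread plaques, no member was called between genotypes. Over both chows edgeR called 0 of 10 members against 38 of 17404 genes (0.218%), 0 had an unadjusted p under 0.05 (10.7% of all genes) and DESeq2 called 0. The median log2 fold change was 0.10 over the microglial and 0.01 over the other members. By chow the microglial median was 0.29 on placebo, with 5 of 5 higher in APPPS1ΔE9 mice, and -0.11 on anle138b, with 0 of 5 higher. Cd33 ran from 10.1 to 11.8 CPM in WT and from 9.19 to 15.5 CPM in APPPS1ΔE9 mice, with a log2 fold change of 0.11 (SE 0.08, adjusted p = 0.612). Abi3 ran from 0.886 to 1.46 and from 1.06 to 1.63 CPM, with a log2 fold change of 0.11 (SE 0.13, adjusted p = 0.782). Both overlapped between the genotypes. Of the microglial markers 7 of 16 tested plaque-associated ones had risen at this age and 0 of 12 homeostatic ones had passed.

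Inpp5d had the smallest adjusted p of the members in both 6-month comparisons that hold the placebo-treated APPPS1ΔE9 mice. It was measured at 12.6, 12.8, 13.03 and 14.6 CPM in placebo-treated WT mice, 12.7, 12.9, 14.3 and 14.6 CPM in anle138b-treated WT mice, 15.2, 15.7, 16.5 and 17.3 CPM in placebo-treated APPPS1ΔE9 mice and 11.2, 12.4, 12.4 and 14.4 CPM in anle138b-treated APPPS1ΔE9 mice. All 4 placebo-treated APPPS1ΔE9 mice were above the other 12 mice of the cohort, which overlapped each other. Markers of tissue next to the hippocampus (choroid plexus, thalamus, pituitary) had a median sum of 450 CPM in these 4 mice. The medians were 5028 and 6689 CPM in WT mice on placebo and anle138b, and 6321 CPM in anle138b-treated APPPS1ΔE9 mice. The ranges overlapped among the groups, and the part of these markers in the result was not tested. The share of all genes that set the 4 placebo-treated APPPS1ΔE9 mice apart was not computed. No lane held both placebo-treated genotypes at this age, so lane and genotype cannot be told apart between them, and on lane 5, which held these 4 mice and 2 anle138b-treated WT mice, the log2 fold change of Inpp5d was 0.24 (SE 0.10, adjusted p = 0.488). Against placebo-treated WT mice its log2 fold change was 0.29 (SE 0.08, adjusted p = 0.349), where edgeR called 0 of 10 members against 12 of 16774 genes (0.0715%), 1 member (Inpp5d) had an unadjusted p under 0.05 (11.1% of all genes) and DESeq2 called 0. Against anle138b-treated WT mice the anle138b-treated APPPS1ΔE9 mice had a log2 fold change of -0.11 (SE 0.09, adjusted p = 0.864), and there edgeR called 0 of 10 against 8 of 17033 genes (0.047%), with 0 at an unadjusted p under 0.05 (5.64% of all genes) and 0 by DESeq2.

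The other question of the design was whether anle138b chow moved these genes. At both ages the chows were on different lanes except for single mice or pairs, and in 6-month APPPS1ΔE9 mice lane and chow cannot be told apart. There edgeR called 0 of 10 members against 9 of 17009 genes (0.0529%). Of the members 3 had an unadjusted p under 0.05 (13.1% of all genes), all lower on anle138b, namely Inpp5d at -0.36 (SE 0.09, adjusted p = 0.280), Plcg2 at -0.35 (SE 0.13, adjusted p = 0.343) and Sorl1 at -0.18 (SE 0.07, adjusted p = 0.345) on the log2 scale. DESeq2 called 1, Inpp5d, at the same log2 fold change with an adjusted p of 0.0718, among the 205 genes it called in all. Plcg2 was at 6.85, 7.32, 8.48 and 8.51 CPM on placebo and 5.04, 5.40, 6.79 and 7.22 CPM on anle138b. Sorl1 was at 439.9, 444, 493.1 and 506 CPM on placebo and 386, 400.0, 424 and 456 CPM on anle138b. Plcg2 and Sorl1 thus overlapped between the chows, unlike Inpp5d, and the share of all genes without overlap was not computed.

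The rest of the microglial members had log2 fold changes of -0.27 (Cd33), -0.26 (Ms4a6d) and -0.32 (Abi3) in these mice. In the same comparison 26 of 28 tested phosphoinositide and ITAM signalling genes had negative fold changes with none called, and the medians were -0.21 for that list, -0.16 for homeostatic and -0.48 for plaque-associated microglia markers, again with none called by edgeR. Markers of tissue next to the hippocampus (choroid plexus, thalamus, pituitary) summed to 71.6 to 6555 CPM (median 450) in the placebo-treated and 166 to 7366 CPM (median 6321) in the anle138b-treated APPPS1ΔE9 mice of this age, and their part in the result was not tested. The genotype by treatment interaction at 6 months called 0 of 10 members and 0 of 17404 genes (0%) in edgeR, with 1 member, Inpp5d, at an unadjusted p under 0.05 (7.99% of all genes) and 0 by DESeq2. Its log2 difference was -0.39 (SE 0.12, adjusted p = 0.603).

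Elsewhere the chow left the members without a call. In 6-month WT mice edgeR called 0 of 10 members and 0 of 16766 genes (0%), with 0 members at an unadjusted p under 0.05 (1.85% of all genes) and 0 by DESeq2. In 10-month APPPS1ΔE9 mice it called 0 of 10 and 0 of 17110 genes (0%), again with 0 at an unadjusted p under 0.05 (1.48% of all genes) and 0 by DESeq2, and member log2 fold changes between -0.14 and 0.14. There Cd33 was at 0.03 (SE 0.13, adjusted p = 0.999) and Inpp5d at 0.14 (SE 0.13, adjusted p = 0.999) on the log2 scale. In 10-month WT mice it called 0 of 10 and 0 of 16986 genes (0%), with 1 member, Ms4a6d, at an unadjusted p under 0.05 (1.25% of all genes) and 0 by DESeq2, its log2 fold change being 0.57 (SE 0.21, adjusted p = 1). The interaction at 10 months called 0 of 10 members and 0 of 17668 genes (0%) in edgeR, with 1 member, Ms4a6d, at an unadjusted p under 0.05 (2.3% of all genes) and 0 by DESeq2, its log2 difference being -0.52 (SE 0.24, adjusted p = 0.989).

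**Figure D4:**
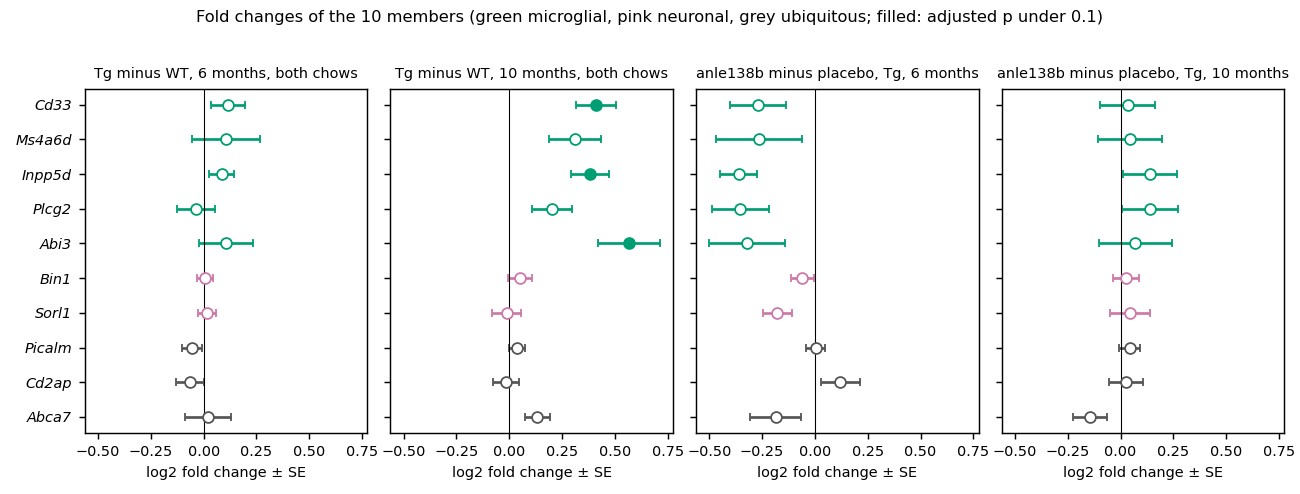
Log2 fold changes of the 10 members with their SE from edgeR, in 4 panels for APPPS1ΔE9 (Tg) minus WT at 6 and at 10 months over both chows, and for anle138b minus placebo in APPPS1ΔE9 mice at 6 and at 10 months. Filled points passed the test, which only Cd33, Inpp5d and Abi3 did, at 10 months between genotypes, where the neuronal and ubiquitous members lie between -0.01 and 0.13.

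Whether the genotype difference changed with age was tested across all 8 groups. EdgeR called 0 of 10 members against 32 of 18232 genes (0.176%), 3 members had an unadjusted p under 0.05 (7.42% of all genes) and DESeq2 called 0. The 3 were those called at 10 months, with differences between the ages of 0.30 (SE 0.13, adjusted p = 0.638) for Cd33, 0.30 (SE 0.12, adjusted p = 0.541) for Inpp5d and 0.46 (SE 0.20, adjusted p = 0.610) for Abi3 on the log2 scale. A change of the genotype effect with age was thus not shown for any member. Cd2ap stood apart between the cohorts themselves, at 16.7 to 24.7 CPM in the 16 mice of 6 months and 25.04 to 34.1 CPM in the 22 mice of 10 months. The ages did not overlap for this gene, and age and cohort cannot be told apart. The share of all genes without overlap between the cohorts was not computed, so this separation is no result about Cd2ap.

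Lastly, the members were compared with cell type markers among mice of the same group, which uses the spread that the genotype and chow do not set. For each of the 38 mice the deviation of a member's log2 CPM from its group mean was correlated with the deviation of the mean of the 12 homeostatic microglia markers, and likewise with 10 neuron markers (20 relations, 100000 permutations of mice within groups, Benjamini-Hochberg adjustment over the 20). Both measures of a pair come from the same library and share its depth and dissection. Cd33 and Inpp5d followed the microglia markers most closely, Plcg2 less so, and Ms4a6d and Abi3 did not pass. Cd33 had r = 0.83 and rho = 0.82, and Inpp5d r = 0.82 and rho = 0.77, each with permutation p = 1e-05, the smallest these permutations can give (adjusted p = 1e-04). Plcg2 had r = 0.55 and rho = 0.54 (permutation p = 0.00156 and 0.00231, adjusted p = 0.0052 and 0.00924). Ms4a6d had r = 0.19 and rho = 0.20, and Abi3 r = 0.28 and rho = 0.25 (adjusted p = 0.365 and 0.402, and 0.251 and 0.363), the 2 members with the fewest reads. Of 18220 genes 0.0933% had an r at or above that of Cd33, 0.121% at or above that of Inpp5d and 4.11% at or above that of Plcg2. Within the 16 mice of 6 months r was 0.74 for Cd33, 0.60 for Inpp5d and 0.31 for Plcg2 (adjusted permutation p = 0.278, 0.403 and 0.538 over 50 relations, none past the threshold), and within the 22 mice of 10 months 0.86, 0.87 and 0.65 (adjusted permutation p = 0.00025, 0.00025 and 0.0130). Over all 38 mice the median of the markers was also taken in place of their mean. There r was 0.59 for Cd33, 0.77 for Inpp5d and 0.42 for Plcg2 (adjusted permutation p = 0.0014, 0.0002 and 0.057). Cd33 was then below Inpp5d and not far above Bin1 (r = 0.50), so its near-equality with Inpp5d depended on the mean.

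The microglia markers were not followed by microglial members alone. Bin1 had r = 0.53 and rho = 0.52 (permutation p = 0.00134 and 0.0021, adjusted p = 0.0052 and 0.00924), and Sorl1 r = 0.50 and rho = 0.47 (permutation p = 0.00921 and 0.0091, adjusted p = 0.0263 and 0.0260). Abca7 went the other way, with r = -0.49 and rho = -0.51 (permutation p = 0.00153 and 0.00293, adjusted p = 0.0052 and 0.00977), but with the median of the markers in place of their mean its r was -0.29 and did not pass (adjusted permutation p = 0.207). Picalm (r = 0.06) and Cd2ap (r = 0.09) did not pass. Against the neuron markers Cd2ap was lower in mice with higher marker levels, with r = -0.68 and rho = -0.67 (permutation p = 4e-05 and 8e-05, adjusted p = 0.000267 and 0.000533). Picalm had r = -0.39 and rho = -0.42 (permutation p = 0.0286 and 0.0208, adjusted p = 0.0715 and 0.0519), and with the median of the markers r = -0.35, which did not pass (adjusted permutation p = 0.105). Bin1 and Sorl1, classed as neuronal, did not pass against the neuron markers (r = -0.11 and -0.20), and both had r = 0.72 with oligodendrocyte markers. The share of all genes with an r as high against oligodendrocyte markers was not computed. In all 8 of the 20 relations passed, 6 of 10 with microglia markers, where 15.2% of all genes had an r as far from 0 as the weakest of the 6, and 2 of 10 with neuron markers, where 38.1% had an r as far from 0 as the weaker of the 2.

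Without the 2 mice farthest from the median of the markers, r was 0.79 for Cd33, 0.76 for Inpp5d, 0.57 for Plcg2, 0.42 for Bin1, 0.39 for Sorl1 and -0.49 for Abca7 against microglia markers, and -0.67 for Cd2ap and -0.38 for Picalm against neuron markers. Among mice of the same group and lane (36 mice), r was 0.83, 0.84, 0.64, 0.54, 0.51, -0.47, -0.67 and -0.34 for the same 8 relations in that order. Without the libraries with high Xist (25 mice) r was 0.88 for Cd33, 0.84 for Inpp5d, 0.67 for Plcg2 and 0.58 for Bin1, while Sorl1 (r = 0.33) and Picalm (r = -0.43) no longer passed and Ms4a6d (r = 0.56) did.

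**Figure D5:**
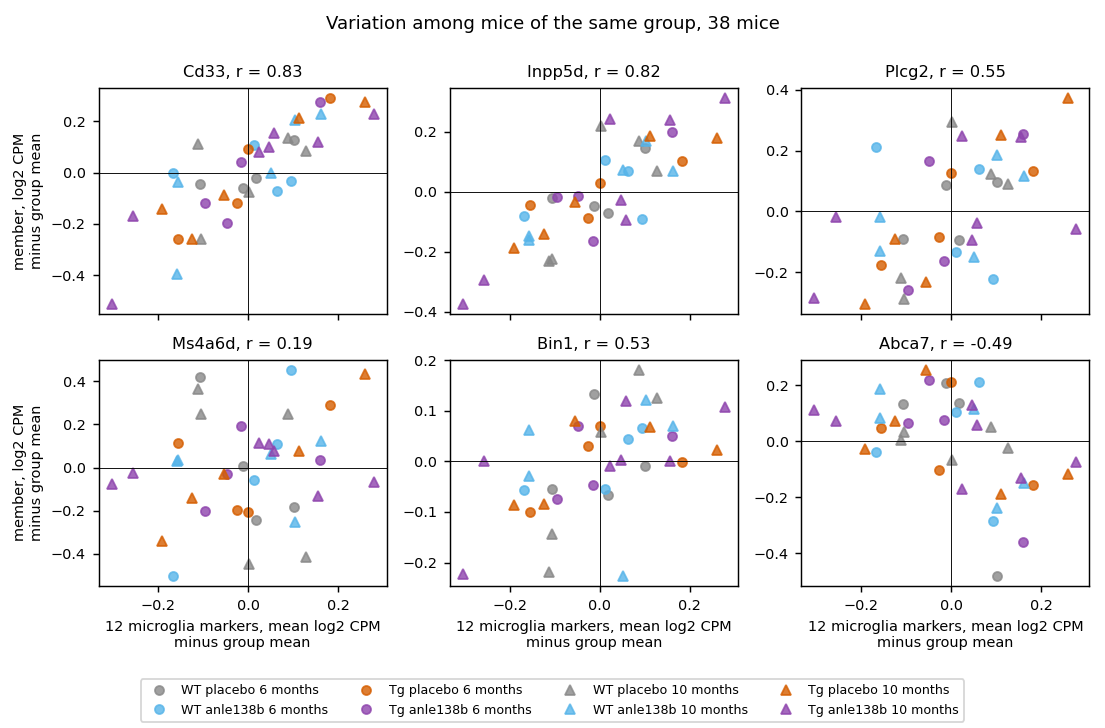
Deviation of a member's log2 CPM from its group mean against the same deviation of the mean of 12 homeostatic microglia markers, for 38 mice and 6 of the members, coloured by genotype and chow with circles for 6 and triangles for 10 months. The points of Cd33 (r = 0.83) and Inpp5d (r = 0.82) lie along a rising line, those of Plcg2 (r = 0.55) and Bin1 (r = 0.53) scatter more widely around one, those of Ms4a6d (r = 0.19) show little slope and those of Abca7 (r = -0.49) fall.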

How the data were processed

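Hippocampal RNA of 38 mice was sequenced as TruSeq mRNA libraries. The authors deposited raw read counts per gene, whole numbers for 48709 Ensembl genes in each library, made by mapping to mm10 with STAR and counting with HTSeq in its intersection-nonempty mode, and the annotation release and strand setting are not given in the sources used here. Reads shared by overlapping genes could therefore be dropped or counted for a single gene, which touches Abi3. Symbols came from GENCODE M21 (48349 of 48709 IDs matched) and promoters from RefSeq (GRCm38.p6). Groups were taken from the sample titles, which for the 4 placebo-treated WT libraries at 6 months go against another label that calls them transgenic. App in those libraries was at WT level.

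Genes were kept by filterByExpr (minimum count 10, minimum total 15), scaled by TMM and tested with edgeR 4.0.16 (robust quasi-likelihood, R 4.3.3), each pair of groups in a fit of its own and pooled or interaction contrasts over all groups of the cohort or cohorts, at a Benjamini-Hochberg adjusted p under 0.1. CPM are TMM-scaled over all 38 libraries. Ratios to markers used log2 CPM with a prior count of 2 and two-sided exact permutation tests, and correlations 100000 permutations (Python 3.11.15). The 75 pairs of replicates differed by more than counting noise (chi-square per degree of freedom 2.99 to 59.6). Alternatives were DESeq2 1.42.0, RLE size factors, no filter, an adjusted p under 0.05, a replicate block, a Y-linked covariate, all groups in 1 fit, single lanes, a prior count of 0.5, marker medians, no libraries with Xist above 100 CPM, and each mouse left out. For the ratios and relations the same values were computed for the 18232 genes kept over all 8 groups, without the markers themselves. The fits were tested on simulated data. Named from the lists were up to 6 genes a list that passed at 10 months. Members and lists were chosen with earlier results of these data known.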

Additional observations from a re-analysis of the deposited data

Results flagged for a closer look

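Of the 80 sets of values formed by 10 members and 8 groups, 7 held a mouse set apart from the rest of its group by Dixon's test, where chance alone gives about 1 in 20. Abca7 was at 19.5 CPM in mouse 77, placebo-treated WT at 6 months, against 29.9 to 31.5 CPM in the other 3, and markers of tissue next to the hippocampus summed to 182 CPM in that library, below the other 3 of its group. Sorl1 was at 350.5 CPM in mouse 57, placebo-treated APPPS1ΔE9 at 10 months, against 468 to 498 CPM, and Bin1 at 239.8 CPM in mouse 97, anle138b-treated APPPS1ΔE9 at 10 months, against 278 to 304 CPM. These 2 libraries had the lowest oligodendrocyte marker sums of their groups, at 2879 and 3051 CPM, whose part in the result was not tested.

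Picalm was at 213.8 CPM in mouse 39, anle138b-treated WT at 6 months, against 165 to 169 CPM, and at 184 CPM in mouse 52, placebo-treated WT at 10 months, against 157 to 164 CPM. Abi3 was at 0.5998 CPM in mouse 55, placebo-treated WT at 10 months, against 1.25 to 1.44 CPM. Ms4a6d was at 0.884 CPM in mouse 64, anle138b-treated WT at 10 months, against 1.09 to 1.17 CPM. Abi3 and Ms4a6d rested on few reads, at most 59 and 40 in a library.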

How the results depend on the processing

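The 3 calls between genotypes at 10 months over both chows became 1 with the replicate block (Inpp5d, log2 fold change 0.40, adjusted p = 0.0955, with Cd33 at 0.39 and 0.121 and Abi3 at 0.52 and 0.206), 0 without the libraries with high Xist, which also left fewer mice, and 2 to 3 with each mouse left out. DESeq2 also gave 3. In anle138b-treated mice at 10 months the count of 0 became 1 with 4 groups in 1 fit, 1 with DESeq2, 2 with the Y-linked covariate and 0 to 2 with each mouse left out, and in APPPS1ΔE9 mice fed anle138b at 6 months DESeq2 gave 1 in place of 0. The 9 ratios to microglia markers became 0 to 9 with each mouse left out. The cause of these changes was not tested, and without the libraries with high Xist the smaller number of mice and the Xist difference cannot be told apart. No called value changed its direction under any alternative, and the other counts, including all those under RLE size factors, no filter and an adjusted p under 0.05, stayed within 1.5 times. Same-numbered mice did not deviate together in every pair of any comparison (mean r -0.25 to 0.35), so they share only a number. The relations without the libraries with high Xist, those within lanes and the ratios without high Xist were chosen after seeing the data. The replicates are separate mice, but 4 to 7 a group and 12 to 59 reads for Ms4a6d and Abi3 limit what could be detected, and lane, cohort and the Xist difference run with the groups.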

Other observations

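After the data were seen, the members were also set against oligodendrocyte, astrocyte and endothelial markers in the same way (30 relations, 38 mice, permutations of mice within groups, adjustment over the 30), and 8 passed. The share of all genes with an r as far from 0 was not computed for these lists, so the count of 8 is no result about the members. Bin1 (r = 0.72, rho = 0.61) and Sorl1 (r = 0.72, rho = 0.67) followed the oligodendrocyte markers (each adjusted permutation p = 0.00045). Cd33 (r = 0.59), Inpp5d (r = 0.55) and Plcg2 (r = 0.53) rose with them as well, and Abca7 fell (r = -0.45), with adjusted permutation p = 0.00795, 0.0148, 0.0148 and 0.0045. Cd33 (r = 0.46) and Inpp5d (r = 0.48) also followed the astrocyte markers (adjusted permutation p = 0.0419 and 0.0219). No member passed against endothelial markers, the r-values lying between -0.35 and 0.35.

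The marker lists were not independent of each other, since homeostatic microglia and oligodendrocyte markers had r = 0.57 and rho = 0.58 among the same mice (permutation p = 0.00162). Oligodendrocyte markers summed to 2491 to 7782 CPM in the WT and 2879 to 7085 CPM in the APPPS1ΔE9 mice of 10 months, and to 5108 to 6659 and 5252 to 6389 CPM at 6 months. Over the 16 mice of 6 months r with oligodendrocyte markers was 0.43 for Bin1 and 0.35 for Sorl1, and over the 22 mice of 10 months 0.78 for both, without a test of the difference.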
